A study of Mus musculus with 10 samples.

Results

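The 10 genes described here encode proteins of epithelial junctions and keratin filaments: the claudins Cldn1, Cldn2 and Cldn3, the keratins Krt8 and Krt18, the desmosomal protein Perp, the protease inhibitor Spint2, E-cadherin (Cdh1), the adhesion molecule Epcam and the orphan receptor Gprc5c. They were taken by symbol from the 53379 genes counted in each library, and the list was chosen from results of these same counts, so their levels and calls are a description and not a test of the list. RNA was sequenced from cells, called nuclei in part of the study's text, sorted for EYFP out of mouse hippocampi, in 3 mock, 2 neg, 2 pos and 3 neu libraries. The labels describe all groups as 5-week-old males with the ChR2-YFP transgene, given in the study's methods as AAV9-c-Fos-tTA with AAV9-TRE-ChR2-EYFP, so that cells whose c-Fos promoter was active while doxycycline was withdrawn expressed the tag. Mock mice stayed in the home cage, and neg mice received 4 foot shocks of 2 s at 1.5 mA as the aversive event. Pos mice met a female for 1 h as the appetitive event, and neu mice were placed in the same conditioning cage with neither stimulus. By the labels 8 mice were pooled for each condition, whereas the methods call mock an untagged control and give it fewer mice. No label tells if a group's libraries were drawn from 1 pool or several, so p-values measure only the spread between libraries, which may be technical. The neu libraries were made with another kit, as labelled, and read at 100 bases in pairs on a NovaSeq, whereas the other libraries were single reads of 40 bases from a HiSeq. The kit, the sequencer and the neutral condition therefore cannot be told apart. The comparisons ask how the RNA of cells tagged during an appetitive or an aversive event differs from that of neutral and home-cage cells.

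Epithelial cells seal their sheets with tight junctions, in which claudins of neighbouring cells bind each other and set which ions pass between the cells. Adherens junctions, built on cadherins, and desmosomes hold the cells together, and desmosomes anchor the keratin filaments, which in simple epithelia are made of a Krt8 chain paired with a Krt18 chain. Neurons build neither keratin filaments nor tight junctions of this kind. In the brain, the epithelium of the choroid plexus, which secretes cerebrospinal fluid into the ventricles and lies beside the hippocampus, carries claudin tight junctions and keratin filaments.

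Sequence before the start site is shown for 4 of the genes, because they hold the motif letters searched for and belong to members with unlike levels. Promoters of 7 of the 10 genes were matched by symbol in the RefSeq table on GRCm38.p6. Each run below is the 100 bases just before the start, 5′ to 3′ on the gene's own strand, at chrX:139800708-139800807 (plus) for Cldn2, chr16:26371840-26371939 (minus) for Cldn1, chr7:29281978-29282077 (minus) for Spint2 and chr17:87635879-87635978 (plus) for Epcam. Capitals mark TATAAA (the core of a TATA box), GGGCGG (the letters bound by Sp1-type factors) and CAGGTG (an E-box that Snail and Zeb repressors can bind), each on either strand.
Cldn2: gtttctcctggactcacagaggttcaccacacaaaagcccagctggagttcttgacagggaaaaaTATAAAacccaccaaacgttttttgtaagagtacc
Cldn1: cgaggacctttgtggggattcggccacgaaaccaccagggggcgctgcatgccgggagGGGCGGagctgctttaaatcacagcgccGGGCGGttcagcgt
Spint2: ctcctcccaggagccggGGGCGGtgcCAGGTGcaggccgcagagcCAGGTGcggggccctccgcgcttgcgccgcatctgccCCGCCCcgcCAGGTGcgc
Epcam: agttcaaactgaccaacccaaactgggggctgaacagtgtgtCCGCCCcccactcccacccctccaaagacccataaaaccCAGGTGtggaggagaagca

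Over the 250 bases before the start, TATAAA was present in 1 of the 7 members (Cldn2) and in 12.4% of all 32851 promoters. GGGCGG was present in 4 (Cldn1, Cldn3, Spint2 and Epcam) against 32.7% of all, and CAGGTG in 4 (Spint2, Krt8, Krt18 and Epcam) against 17.2%. Spint2 and Epcam hold the same pair of motifs, yet Spint2 was the member with the most counts in the neu libraries and Epcam was near 0 in 2 of those 3. A match here describes letters and no binding.

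Levels are given as counts and as CPM, counts normalised to the size of the library with TMM factors, over the 19754 genes that passed the filter on low counts. All 10 members passed. Total counts ran from 16968588 to 67650693 per library, and 3 counts, used as the floor of detection, equalled 0.0347 to 0.235 CPM. Intervals and floors cover counting error only. The members were high in neu, low in mock and neg, and at or near 0 in pos. Their summed level was 2775, 684 and 2570 CPM in the neu libraries, 60.2, 82.2 and 162 CPM in mock, 207 and 249 CPM in neg, and 2.82 and 0.262 CPM in pos. Neither neu nor pos overlapped any other group in this sum. Over the floor were 8 or 9 of the 10 members in each neu library and 9 or 10 in each mock library. The neg libraries had 7 and 5 over it, and pos replicates 1 and 2 had 3 and 0. In those pos libraries 43.4% and 51.1% of all tested genes were over the floor, against 60.4% to 97.9% in the other 8. In bulk samples, fewer cells of a type and less RNA per cell cannot be told apart.

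**Figure D1:**
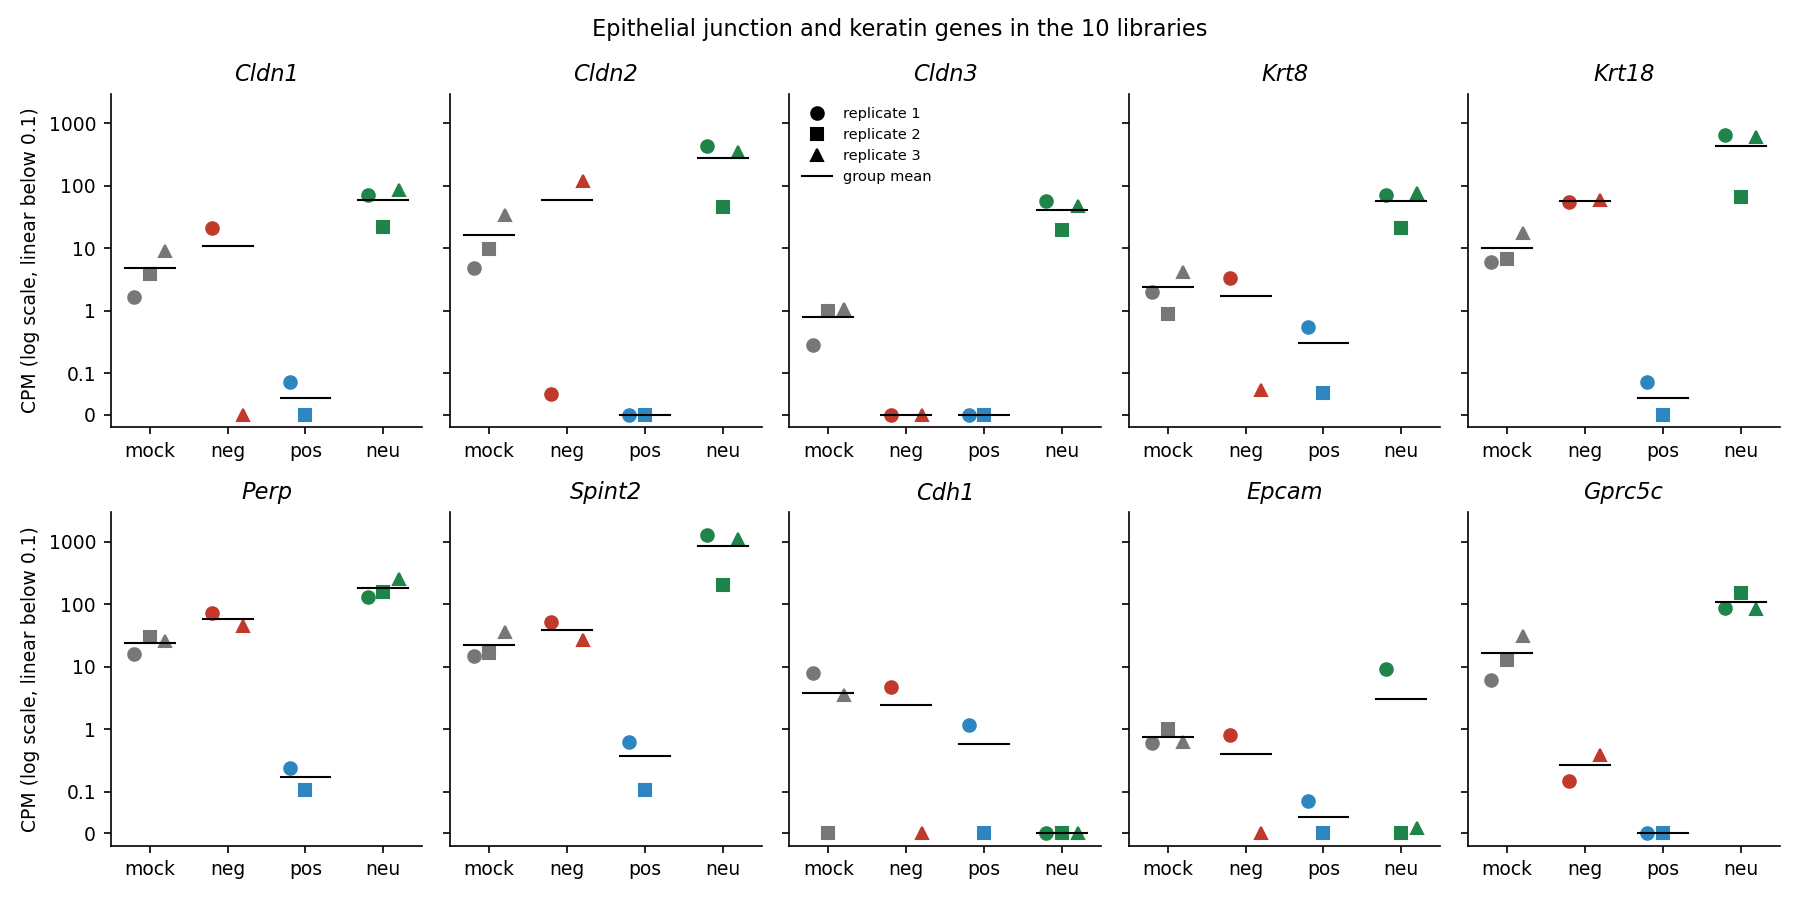
CPM of each of the 10 genes in each library, by group on the x axis, on a log scale that is linear below 0.1; symbols mark replicate numbers and lines the group means. For 8 genes all 3 neu libraries lie above all 3 mock libraries, pos lies at or near 0, and Cdh1 and Epcam depart from the others.

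Cldn2, which forms a pore for cations between epithelial cells, had 27451, 3979 and 26510 counts in neu (433, 46.0 and 341 CPM). It had 119, 183 and 2477 counts in mock (4.74, 9.53 and 34.2 CPM), 0 in both pos libraries, and 1 and 5903 in neg. The neu libraries were all above mock, and the neg libraries stood at opposite ends, with replicate 1 at 0.050 CPM and replicate 3 at 118 CPM.

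Cldn1, a sealing claudin, had 4479, 1863 and 6659 counts in neu (70.7, 21.5 and 85.6 CPM). In mock it had 41, 73 and 655 counts (1.63, 3.80 and 9.05 CPM), in pos 1 and 0, and in neg 426 and 0. The neg libraries again split, but the other way round from Cldn2: Cldn1 was at 21.3 CPM in replicate 1 and at 0 in replicate 3. Neg replicate 1 lay only just under the lowest neu library, and it overlapped neu under DESeq2's scaling.

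Cldn3, another sealing claudin, had 3561, 1666 and 3705 counts in neu (56.2, 19.2 and 47.6 CPM) and 7, 19 and 78 in mock (0.279, 0.990 and 1.08 CPM). It had no count in any of the 4 pos and neg libraries. Cldn4, which lies 39279 bases from Cldn3 on the other strand, had 1 count in neu replicate 1 and 0 in the other 9 libraries. The claudins thus differed among themselves in neg, where Cldn1 and Cldn2 were each present in a single and different library and Cldn3 in neither.

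Krt18, a keratin of simple epithelia, had 40549, 5635 and 46248 counts in neu (640, 65.1 and 594 CPM) and 150, 128 and 1249 in mock (5.97, 6.67 and 17.3 CPM). It had 1083 and 2943 counts in neg (54.2 and 59.0 CPM), and 1 and 0 in pos. Its 2 neg libraries agreed closely and lay between mock and neu.

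Krt8, the partner chain of Krt18, had 4577, 1802 and 5937 counts in neu (72.2, 20.8 and 76.3 CPM) and 49, 17 and 305 in mock (1.95, 0.885 and 4.21 CPM). In neg it had 67 and 3 counts (3.35 and 0.0601 CPM) and in pos 7 and 1. The neg libraries thus differed in Krt8 and not in Krt18, and neg replicate 3 held 2943 counts of Krt18 beside 3 of Krt8. The pair lie next to each other on chromosome 15 (Krt8 at 101996698 to 102004482, minus; Krt18 at 102028180 to 102032027, plus; GRCm38), 23697 bases apart. Krt8 is the less certain of the pair, because 32.4% of its 40-base windows also occur in transcripts of Krt8-ps or Gm36026, against 4.36% for Krt18 with Gm5200 and Gm17847. Krt8-ps itself received at most 39 counts, in neu replicate 1. Counting ignored strand, and Gm36026 overlaps Krt8 on the other strand.

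Perp, a membrane protein needed for desmosome assembly, was counted in every library. It had 8334, 13830 and 19660 counts in neu (131, 160 and 253 CPM) and 408, 574 and 1886 in mock (16.2, 29.9 and 26.1 CPM). In neg it had 1423 and 2230 counts (71.2 and 44.7 CPM), and in pos 3 and 2 (0.235 and 0.105 CPM). The 4 groups did not overlap, in the order neu, neg, mock, pos.

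Spint2, a Kunitz-type inhibitor of membrane serine proteases, had more counts in neu than any other member, with 80928, 17440 and 84708 (1277, 201 and 1088 CPM). It had 373, 321 and 2555 in mock (14.9, 16.7 and 35.3 CPM), 1029 and 1318 in neg (51.5 and 26.4 CPM), and 8 and 2 in pos (0.626 and 0.105 CPM). Mock and neg overlapped, and neu and pos stood apart from both.

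Gprc5c, a retinoic acid-inducible orphan receptor, was lower in both neg libraries than in every mock library. It had 154, 244 and 2222 counts in mock (6.13, 12.7 and 30.7 CPM) but 3 and 19 in neg (0.150 and 0.381 CPM). In neu it had 5461, 13040 and 6570 counts (86.1, 151 and 84.4 CPM), and in pos 0 and 0. Cldn3 was the other member below every mock library in neg, whereas Krt18 and Perp were above. How many of all tested genes have neg and mock apart like this was not counted, so nothing is read from it.

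Cdh1 and Epcam, the most widely used epithelial markers of the list, did not follow the other 8. Cdh1 had 0 counts in all 3 neu libraries, which allows up to 0.0347 to 0.0473 CPM, and 196, 0 and 252 counts in mock. It had 96 and 0 in neg and 15 and 0 in pos, so that each of those groups held at least 1 library at 0. Epcam had 583, 0 and 1 counts in neu, 15, 19 and 45 in mock, 16 and 0 in neg, and 1 and 0 in pos. Its neu mean of 3.07 ± 5.31 CPM (SD, n = 3) came from replicate 1 alone. Cdh3 (P-cadherin), named after its values were seen, had 1738, 416 and 2226 counts in the neu libraries where Cdh1 had none. The other 8 members, among them Gprc5c, which is no junction or keratin gene, were all high in neu, as the choice of the list fixes.

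Set on a common scale of CPM per kilobase of exon, the neu levels ran from Krt18 at 301 ± 222 (SD, n = 3) through Spint2 at 188 ± 126, Perp at 92.9 ± 32.5 and Cldn2 at 82.2 ± 60.8 to Cldn3 at 32.6 ± 15.4. Below these came Krt8 at 28.8 ± 15.8, Gprc5c at 20.4 ± 7.19, Cldn1 at 12.2 ± 6.92, Epcam at 1.40 ± 2.42 and Cdh1 at 0. From Krt18 to Gprc5c each mean lay within the larger SD of the pair from the next, and the libraries of Gprc5c and Cldn1 overlapped. These SDs are spreads between libraries that hold all the genes, so they do not measure differences between genes. The order of neighbours was not tested. The lowest Cldn1 library (4.44) was just above the highest Epcam library (4.19). Krt18 was thus read at a higher level per length than its partner Krt8 in each neu library (445, 45.3 and 413 against 36.9, 10.6 and 39.0). In mock the order was led by Perp at 12.3 ± 3.61 (n = 3), with Krt18 at 6.94 ± 4.40 and Spint2 at 4.89 ± 2.48. In neg it was led by Krt18 at 39.4 ± 2.35 (n = 2) and Perp at 29.7 ± 9.61.

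**Figure D2:**
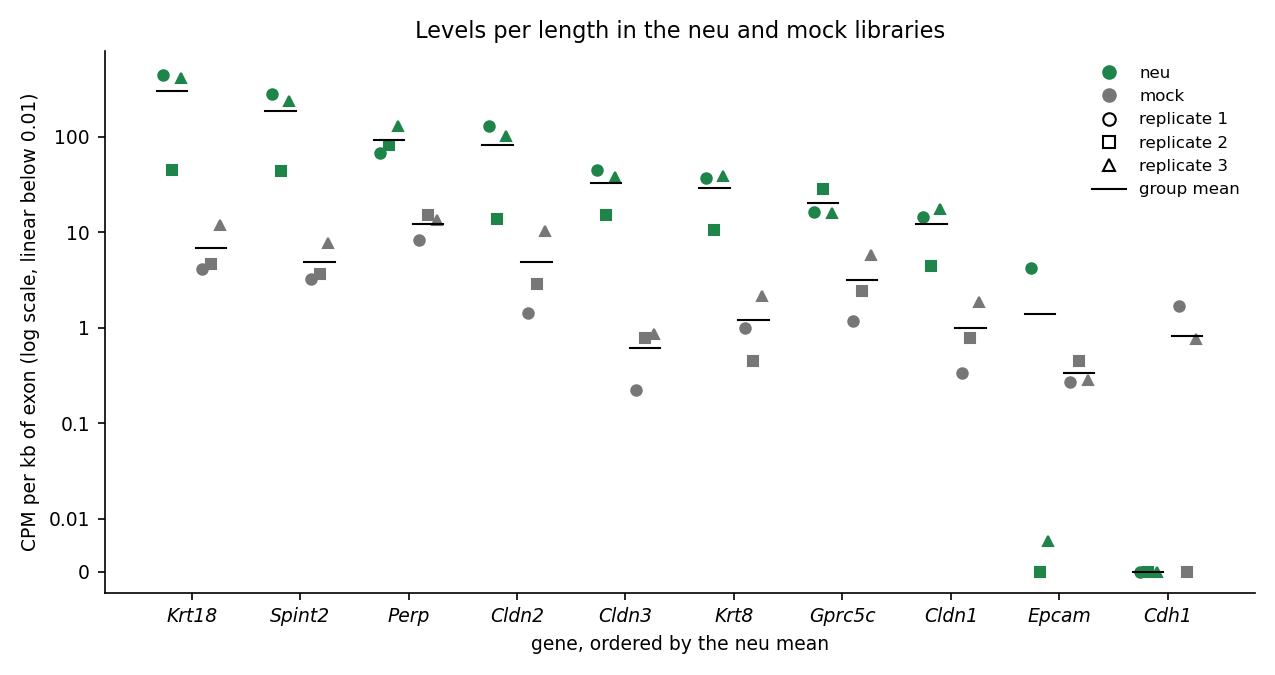
CPM per kilobase of exon of the 10 genes in the neu (green) and mock (grey) libraries, on a log scale that is linear below 0.01; symbols mark replicate numbers and lines the means. Krt18 leads in neu at a mean of 301 and Perp leads in mock at 12.3, and Cdh1 is at 0 in all 3 neu libraries.

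Among the neu libraries, replicate 2 was the lowest for Cldn1, Cldn2, Cldn3, Krt8, Krt18 and Spint2, and not for Perp or Gprc5c. Krt18 was 9.83 and 9.13 times higher in replicates 1 and 3 than in replicate 2, and Cldn2 9.42 and 7.41 times. Spint2 was 6.34 and 5.40 times higher there, and Cldn3 2.92 and 2.47 times. Perp in replicate 1 was 0.823 times its level in replicate 2, and Gprc5c was 0.572 and 0.560 times its level there in replicates 1 and 3. All 24 genes of a list of choroid plexus markers were also lowest in replicate 2, as were the 6 members and not Perp or Gprc5c. The share of all tested genes lowest there was not taken, so nothing is read from this likeness.

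**Figure D3:**
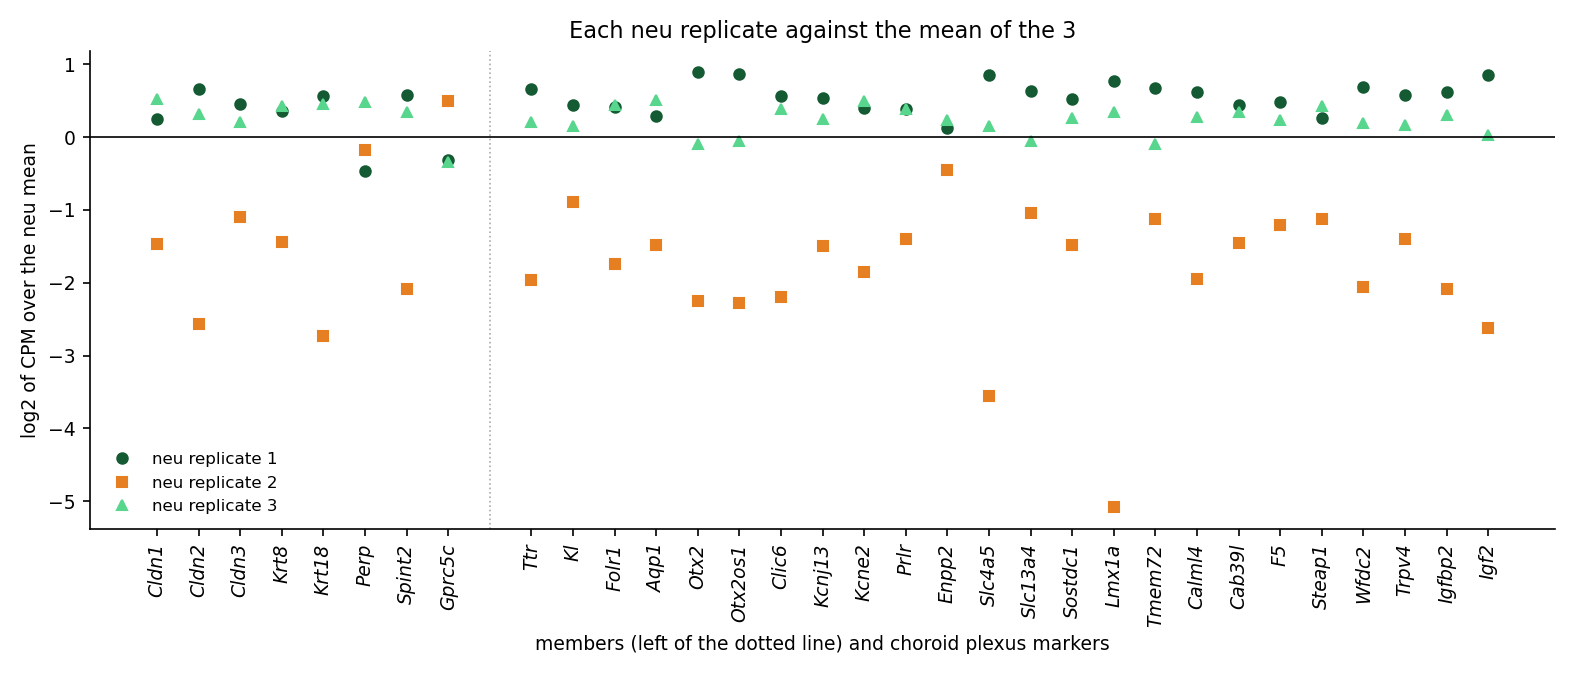
Log2 of CPM over the mean of the 3 neu libraries, for the 8 members present in all 3 (left of the dotted line) and 24 choroid plexus markers (right), with colours and symbols for replicates. Replicate 2 is lowest for 6 of the 8 members and for all 24 markers, and Perp and Gprc5c are the members for which it is not.

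In pos against neu, 6 of the 10 members were called lower at an adjusted p under 0.05 by edgeR's quasi-likelihood test with Benjamini-Hochberg adjustment over all tested genes: Cldn2, Cldn3, Krt18, Perp, Spint2 and Gprc5c. Of all tested genes 5.23% were called lower, and since the list was drawn from this contrast nothing is read from the difference. Spint2 fell by 11.23 ± 1.50 on the log2 scale (SE). Against the 3-count floor of the pos libraries, Cldn2 was at least 1165-fold lower, Gprc5c at least 456-fold and Cldn3 at least 175-fold. Perp was lower by a ratio of 1156 (95% counting interval 495 to 3559), from 5 counts in pos, and Krt18 by 13803 (2477 to 545200), from 1 count.

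Of the members not called, Krt8 stood at 0.300 CPM in pos and 56.4 in neu (log2 fold change -7.58 ± 2.22). Cldn1 stood at 0.0391 and 59.2 CPM, Epcam at 0.0391 and 3.07, and Cdh1 at 0.586 and 0. Every pos library was below every neu library for 8 members, all except Cdh1 and Epcam, against 27.2% of all tested genes. The median log2 change of the members was -10.93 as fitted, and -9.50 with genes under the floor set to their bound or ratio, beside -0.91 for all tested genes. Without any 1 mock or neu library 4 or 5 members were called, and 67 to 777 of all tested genes in either direction. With the pos and neu libraries fitted alone 0 of the 8 members then tested were called, as were 0 of all 16100 genes. The log2 change of Spint2 was still -11.19 in that fit.

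Pos was also below mock and neg, in comparisons that use the same pos libraries as the comparison with neu. Against mock, 4 members were called lower (Krt18, Perp, Spint2 and Gprc5c), against 1.96% of all tested genes. Spint2 fell by 5.97 ± 1.21 on the log2 scale, Gprc5c was at least 70.4-fold lower, and Perp was lower by a ratio of 153 (65.8 to 473). Krt18 was lower by a ratio of 318 (57.0 to 12550). Every pos library was below every mock library for 9 members, all except Cdh1, against 38.9% of all tested genes. The call of 4 members fell to 0 without any 1 mock or neu library. So did the calls over all tested genes, of which there were 391 in the main fit, so the loss was not particular to the members.

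Against neg, 3 members were called lower in pos (Krt18, Perp and Spint2), against 1.69% of all tested genes. Spint2 fell by 6.77 ± 1.28, and Perp and Krt18 were lower by ratios of 369 (158 to 1138) and 1804 (324 to 71253). Cldn2 was at least 252-fold lower in pos than the neg mean, which rested on neg replicate 3, and was not called. Krt8 at 0.300 against 1.71 CPM and Cdh1 at 0.586 against 2.40 CPM overlapped between the groups. For Cldn3 both groups were at 0 and no fold is given. None of these 3 calls was kept without any 1 mock library or without neu replicate 1 or 3. In those fits 0 of all tested genes were called in this comparison.

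In neu against mock, 0 members were called by edgeR, 8 had an unadjusted p under 0.05, and DESeq2's Wald test called 7. Of all tested genes, 0.0861% were called by edgeR in either direction and 13.5% had an unadjusted p under 0.05, and DESeq2 called 4.64% of the genes it tested. Cldn3 stood at 41.0 ± 19.3 CPM in neu and 0.782 ± 0.438 in mock (SD, n = 3 each; log2 fold change 5.70 ± 1.38 SE). Krt18 stood at 433 ± 319 and 9.97 ± 6.33 CPM (5.44 ± 1.05), and Spint2 at 855 ± 574 and 22.3 ± 11.3 (5.26 ± 0.95). The log2 fold changes were 4.58 ± 1.58 for Krt8, 4.08 ± 1.80 for Cldn2, 3.61 ± 1.88 for Cldn1, 2.91 ± 0.70 for Perp and 2.70 ± 0.96 for Gprc5c. Epcam, at 2.06 ± 2.59, turned to -6.33 without neu replicate 1. Cdh1 was at least 79.5-fold higher in the mock mean than in neu. Every neu library was above every mock library for 8 members, against 16% of all tested genes, and this count was the same under the 3 scalings tried. The members' median was 3.85 and that of all tested genes 0.08.

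In neg against neu, 0 members were called by edgeR (0.0405% of all tested genes were called), 6 had an unadjusted p under 0.05 (19.1% of all tested genes) and DESeq2 called 5 (10% of the genes it tested). Of the members with a fitted change, Gprc5c differed most, at 0.265 ± 0.163 CPM (n = 2) in neg and 107 ± 37.7 (n = 3) in neu, a log2 fold change of -8.61 ± 1.53. Krt8 differed by -5.05 ± 1.94, Spint2 by -4.46 ± 1.09, Krt18 by -2.94 ± 1.10 and Perp by -1.65 ± 0.78, and Cldn3 was at least 273-fold lower in neg. Every neg library was below every neu library for 7 members, against 19.3% of all tested genes, and for 5 under DESeq2's scaling, where Cldn1 and Krt18 overlapped. Cdh1 was at least 50.8-fold higher in the neg mean than in neu, from neg replicate 1 alone. The members' median was -2.94 and that of all tested genes -0.15. The log2 change of Gprc5c was -8.57 without pos replicate 1 and -8.56 without pos replicate 2.

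In neg against mock, the members did not move one way. By edgeR 0 were called, as were 0% of all tested genes, while 3 members had an unadjusted p under 0.05 (9.96% of all tested genes) and DESeq2 called 2 (4.3% of the genes it tested). The log2 fold change was 2.50 ± 0.98 for Krt18 and 1.27 ± 0.72 for Perp, for which both neg libraries lay above all mock libraries. It was -5.92 ± 1.35 for Gprc5c, for which both lay below, and Cldn3 was at least 5.21-fold lower in neg. The share of all tested genes separated in this way was not taken, so nothing is read from these separations. Spint2 gave 0.80 ± 0.88, Cldn1 1.14 ± 1.88, Cldn2 1.87 ± 1.76, Krt8 -0.47 ± 1.55, Cdh1 -0.65 ± 2.98 and Epcam -0.89 ± 2.88. For each of these last 6 except Spint2 the sign turned when 1 library was left out. The members' median was 0.16, beside -0.13 for all tested genes.

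**Figure D4:**
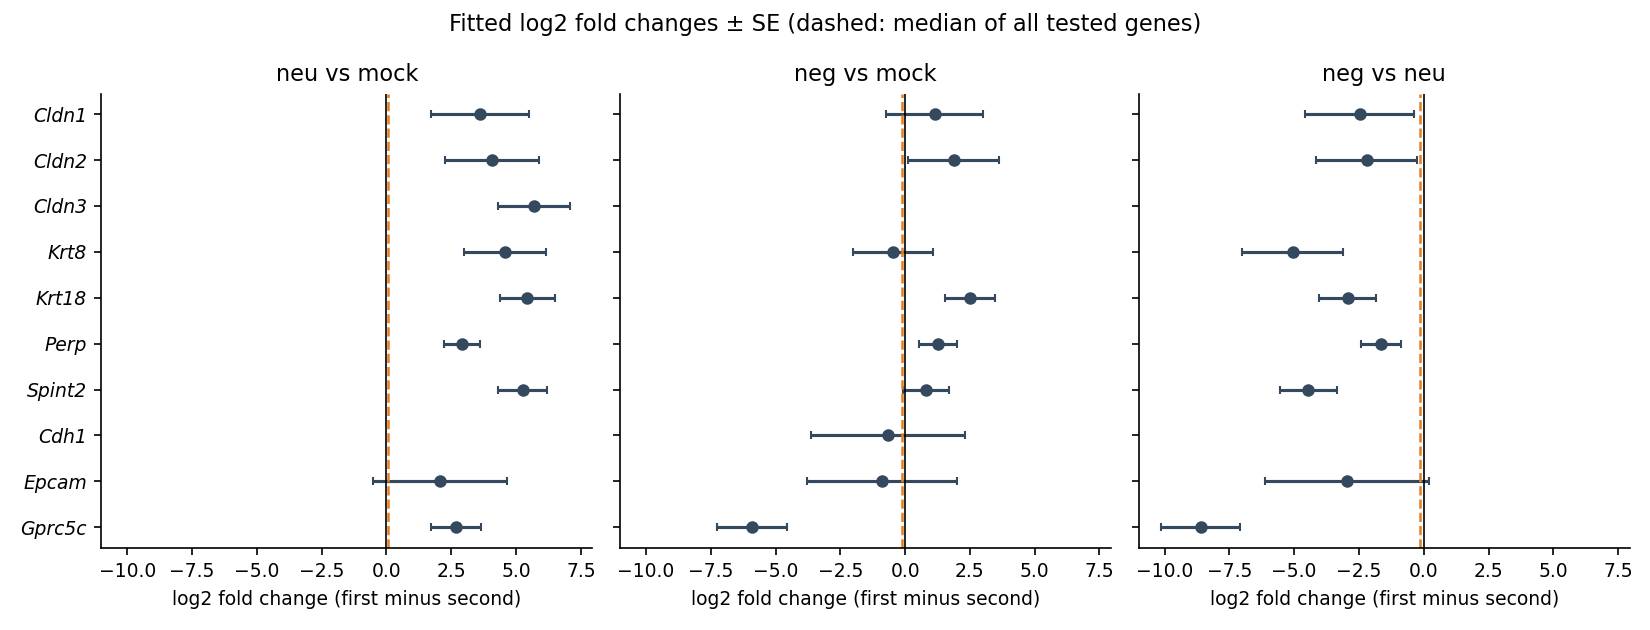
Fitted log2 fold change (x axis, first group minus second) with SE bars for each member in neu against mock, neg against mock and neg against neu; the dashed line is the median of all tested genes. Members with a group at or under the 3-count floor have no point, and Gprc5c lies at -5.92 in neg against mock while Krt18 lies at 2.50.

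Other genes of the same structures were taken from lists of 87 companion genes, of which 86 were in the files and 63 passed the filter. In pos against neu, 4 of 20 tight junction genes were called lower, namely Cgn (cingulin, a cytoplasmic plaque protein), Tjp3 (a ZO scaffold), Cldn12 and Crb3 (an apical polarity protein). Of 9 keratin-related genes 1 was called lower (Krtcap3, a keratinocyte-associated membrane protein and no keratin), and of 15 epithelial regulators 1 was called higher (Zeb2, a repressor of Cdh1). No call was made among 14 desmosome and adherens genes or 5 genes of epithelial protease control, of which 7 and 0 had an unadjusted p under 0.05. Of all tested genes 5.23% were called lower by edgeR in this comparison. Such an unadjusted p was met by 29.3% of all tested genes and by 36.5% of the 63 companions. Without the count filter DESeq2 called 8 of 24 tight junction genes lower and 0 higher, 2 of 17 keratin-related genes lower and 5 higher, and 4 of 14 regulators lower and 1 higher. It called 4 of 14 desmosome and adherens genes lower and 1 higher, and 0 of 3 genes of protease control. Over all lists DESeq2 called 18 of 72 companions lower and 7 higher. Of all 33883 genes it tested, it called 4427 lower and 1580 higher, 17.7% in either direction. The keratin-related list thus had 1 lower call by edgeR but more higher than lower calls by DESeq2. Its sum was 40.7 CPM in pos replicate 1, with 3 genes over the floor, and 332 CPM in pos replicate 2, with 13. In neu its sum was 114 to 225 CPM, so a higher level in pos rested on replicate 2 alone. Cgn had 4271, 841 and 2057 counts in neu and 0 in both pos libraries. Tjp3 had 11497, 2640 and 10076 counts in neu and 1 and 0 in pos. Zeb2 was at 22.9, 55.1 and 11.7 CPM in neu, and at 437 and 293 CPM in pos. Cdh1 was at 0 in the 3 neu libraries, which held the least Zeb2, and also in mock replicate 2, neg replicate 3 and pos replicate 2, where Zeb2 stood at 125, 157 and 293 CPM.

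In the other 5 comparisons edgeR called 0 of the 63 companion genes. An unadjusted p under 0.05 was met by 22.2% of them in neg against neu (19.1% of all tested genes), 17.5% in pos against neg (20% of all) and 22.2% in pos against mock (23.8% of all). It was met by 9.52% in neg against mock (9.96% of all) and 23.8% in neu against mock (13.5% of all). Of the 72 companion genes that DESeq2 tested, it called 12 lower and 3 higher, 7 and 5, 9 and 4, 5 and 1, and 9 and 7, in the same order. The companions' median log2 change in pos against neu was -3.60 as fitted and -3.29 with bounds, and in neu against mock it was 0.84. The list median in neu against mock was 0.61 for tight junctions, 0.37 for desmosome and adherens genes, 1.74 for keratin-related genes, -0.74 for protease control and 0.45 for regulators. The members were therefore higher in neu relative to mock than the companion genes, a difference that the choice of the members fixes.

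Markers of cell types were read beside the members. The 24 choroid plexus genes summed to 157658, 33091 and 120735 CPM in neu, of which Ttr (transthyretin) alone was 128856, 20730 and 93601. They summed to 2992, 2839 and 7811 CPM in mock, 21470 and 10223 in neg, and 2070 and 8415 in pos. All 24 were higher in neu than mock by the fitted sign, with 0 called by edgeR, 18 at an unadjusted p under 0.05 and 13 called by DESeq2. All 24 were lower in pos than neu, with 12 called. The neg libraries summed to more than mock in this list, with 20 of the 24 genes above 0 in log2 change, 4 below and 0 called by edgeR (2 at an unadjusted p under 0.05), while DESeq2 called 1 lower. Pos replicate 2 had a choroid plexus sum above all mock libraries while no member was over its floor, and 13 of the 24 markers were. That sum was 5131 CPM of Enpp2, which oligodendrocytes also make, and 2897 CPM of Ttr, and in pos against mock 17 of the 24 genes were below 0 in log2 change. EdgeR called 3 of the 24 lower and DESeq2 10, and neither called any higher. The list's part in the members' levels was not tested.

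Among choroid plexus genes called in 2 or more comparisons were Calml4, F5, Wfdc2 and Trpv4, which like Cldn2 and Gprc5c had at most 2 counts in either pos library. Calml4 had 36816, 8539 and 35732 counts in neu, 185 to 2159 in mock, 870 and 1278 in neg, and 0 in both pos libraries. Of 15 ependymal genes, which mark the ciliated lining of the ventricles, 4 were called lower in pos against neu, and Rsph1, of the cilium's radial spoke, was called lower in pos against each other group. Rsph1 had 0 counts in both pos libraries and 15150, 5776 and 17646 in neu. The ependymal sum was 1251 to 1892 CPM in neu, 324 to 1785 in mock, 789 and 1087 in neg, and 696 and 190 in pos.

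Other lists moved the opposite way in neu or with single libraries. The 12 astrocyte genes summed to 484 to 512 CPM in neu and to 4215 or more in each other library, and Slc1a2, Slc1a3 and Aldoc were called lower in neu against mock. The 14 microglial genes summed to 50.8 to 548 CPM in neu and to 1516 or more elsewhere, and the 14 hippocampal neuron genes to 78.8 to 121 CPM in neu and 254 to 866 elsewhere. In each library 7 or more of these 14 were over the floor, and they took at most 0.0868% of its total counts. The 12 oligodendrocyte genes summed to 807309 CPM in pos replicate 1, through Mbp, and to 7590 to 411947 CPM in the other libraries. They took 38.7% of the total counts of pos replicate 1, whose TMM factor was 0.480, and 0.942% to 31.6% of those of the other libraries. The 14 endothelial genes ranged from 1495 to 13152 CPM without separating neu from the rest, and Tek was called lower in pos against each other group. The 14 genes of leptomeninges and fibroblasts summed to 900 to 1049 CPM in mock, 1475 to 2503 in neu, 2215 and 3266 in neg, and 3367 and 8118 in pos. Most of them did not follow this sum, as 12 were below 0 in log2 change in pos against mock and 2 above. The median change was -4.91 as fitted and -3.94 with bounds. EdgeR called only Ptgds, higher, and DESeq2 called 5 of 13 lower and 1 higher. In pos replicates 1 and 2, 6 and 5 of the 14 were over the floor. The part of these lists in the members' levels was not tested.

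**Figure D5:**
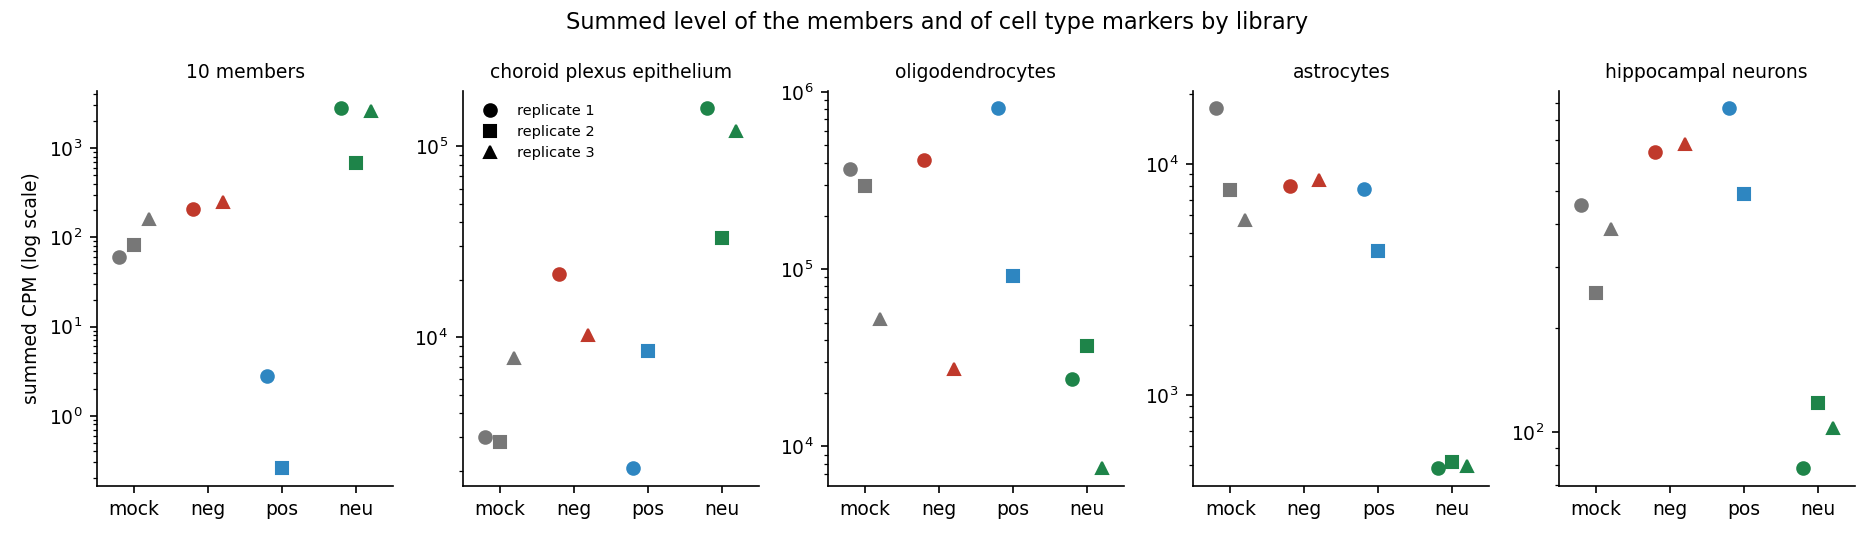
Summed CPM of the 10 members and of 4 marker lists in each library, by group, on log axes that differ between panels; symbols mark replicate numbers. The members and the choroid plexus list are highest in the 3 neu libraries, where the astrocyte and neuron lists are lowest.

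Genes beside the members did not share their pattern as a rule. Wbscr25, an antisense gene that overlaps Cldn3, had 360, 3 and 133 counts in neu and at most 4 elsewhere. Strand was not used, but only 1 of the 1220 40-base windows of Cldn3 also occurs in Wbscr25 transcripts, so few reads could belong to both. P3h2, next to Cldn1, had 1473, 1542 and 2174 counts in neu, 119 to 630 in mock and at most 1 in the neg and pos libraries. Abhd11, next to Cldn3, had 1741 to 5550 counts in neu but also 1939 in pos replicate 2. Eif4b, next to Krt18, had 1555 to 4229 counts in neu and 857 and 1264 in pos. Ppp1r14a, next to Spint2, had 3339 and 7348 counts in pos, above every mock library. Cldn16 beside Cldn1, Krt78 beside Krt8 and Ripply1 beside Cldn2 had 0 counts in all 10 libraries.

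The profile of the members' medians over the 10 libraries was nearest to those of Frrs1, Brwd3, Gstm2, Spag8, Scly, Mus81, Tmem53 and C1qtnf12, by the root mean square difference of centred log2 CPM. This measure was 0.69 for Frrs1 and 0.98 for C1qtnf12. Spint2 itself ranked at position 19 among the 19754 tested genes, Cldn1 at 57, Krt8 at 90 and Perp at 163, whereas Cldn2 ranked at 6523, Epcam at 6928 and Cdh1 at 18492. The profile is the median of the members themselves, so high ranks of members are partly fixed and no evidence of a shared pattern. Over the 7 libraries other than neu, only Brwd3 of the 8 stayed among the nearest 8. Which libraries carry the likeness was not tested. The nearest gene to a single member was Serinc2 for Cldn1, Pifo for Cldn2, 2310030G06Rik for Cldn3, Pkdcc for Krt8, Rdh5 for Krt18 and Sdf2l1 for Perp. It was Tmem108 for Spint2, Matn2 for Gprc5c, Dennd2d for Epcam and Jchain for Cdh1, at differences of 0.43 to 0.96.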

How the data were processed

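RNA-seq counts of 10 libraries from sorted mouse hippocampal cells were used. Per the labels and the study's methods, the authors mapped the first 40 bases of the reads with STAR to mm10 (GRCm38) and counted Ensembl genes with featureCounts of the Subread package without strand; they deposited raw counts, 53379 genes per library. Tool versions are not given in the sources used here. Gene names came from GENCODE (53274 ids matched), and promoter sequence from RefSeq on GRCm38.p6.

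The counts were tested with edgeR 4.0.16 in R 4.3.3: filterByExpr, TMM factors (0.480 to 1.45), and a quasi-likelihood fit of 4 groups over all 10 libraries, with p-values adjusted by Benjamini-Hochberg over 19754 genes and called under 0.05. The biological coefficient of variation was 122%, so that single genes are measured with wide error. SE is the log2 fold change over the root of F. Profiles used log2 CPM with a prior count of 2. A group with no count was set against 3 counts per library, and a group with at most 3 counts in each library was given as a ratio with an exact Poisson interval. DESeq2 1.42.0, other scalings, no filter, a replicate block, fits of 2 groups and each library left out were alternatives.

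The members and the gene lists were chosen with earlier results of these data known. Named are all 10 members, list genes called in 2 or more comparisons, the 8 genes nearest the median profile and 1 nearest each member, and neighbouring genes. Figures were drawn with matplotlib 3.10.9.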

Additional observations from a re-analysis of the deposited data

How the results depend on the processing

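Of 571 alternative values of 34 fitted log2 fold changes, 508 kept their direction and side of the threshold, 19 lost their call, 28 gained one and 16 changed sign. The members called in pos against neu, neg against neu, pos against neg, pos against mock, neg against mock and neu against mock were 6, 0, 3, 4, 0 and 0. They were 6, 0, 3, 3, 0 and 0 with DESeq2's size factors, 7, 0, 3, 4, 0 and 0 with library size alone, 8, 3, 5, 5, 0 and 3 without a filter, and 8, 5, 5, 7, 2 and 7 by DESeq2's Wald test. Fits of 2 groups alone called 0, 0, 0, 7, 0 and 0. Leaving out 1 library gave 4 to 8, 0 to 3, 0 to 4, 0 to 7, 0 to 0 and 0 to 2. With at least 10 counts required in every library no member was left to test. The cause of these changes was not tested.

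Replicate numbers are shared between groups, but same-numbered libraries correlated in their deviations from group means at only -0.04 to 0.16, so the numbers were not taken as pairs. With the replicate block in the fit of all 10 libraries 4, 0, 0, 0, 0 and 0 members were called, and in fits of 2 groups 0 in each of the 5 that could be blocked. Under the block over all libraries and in 2 groups the log2 change of Cldn1 in neg against mock was -0.13 and -2.60, and that of Epcam in neu against mock -4.38 and -4.57; Cldn2 in neg against mock was -1.70 in 2 groups.

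Left-out libraries turned the sign of 9 log2 changes. Epcam in neg against neu ran from -10.12 to 5.43, Krt8 in pos against neg from -5.11 to 2.13 and Cdh1 there from -9.90 to 7.69. In neg against mock, Cldn1 ran from -10.90 to 2.13, Cldn2 from -8.27 to 3.10, Krt8 from -5.31 to 0.50, Cdh1 from -10.61 to 0.50 and Epcam from -8.22 to 0.12. Epcam in neu against mock ran from -6.33 to 2.63. The median log2 change of all genes in pos against neu was -0.91 with TMM, -0.63 with DESeq2's size factors and -1.45 with library size.

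Over all genes, 1218, 8, 356, 391, 0 and 17 were called in the same order of comparisons, against 2535, 863, 1270, 1124, 10 and 520 without a filter, 6007, 3387, 3948, 4756, 1458 and 1573 by DESeq2, and 73, 0, 0, 0, 0 and 0 with the block. With 2 groups alone 0, 0, 0, 3585, 0 and 0 were called. The floor was 0.235 CPM in pos replicate 1, whose TMM factor was 0.480, and 0.157 CPM in pos replicate 2, close to 0.156 in mock replicate 2 and 0.150 in neg replicate 1.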

Other observations

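Keratins of stratified epithelium, picked out after their values were seen, were counted in pos replicate 2, the library in which no member was over the floor. Krt14 had 1329 counts there, Krt17 1144, Krt5 342, Krt16 183 and Krt6a 56, and none of these had more than 4 counts in any other library. Krt19, a keratin of simple and ductal epithelia, had 162 counts in the same library and 489 and 479 in neu replicates 2 and 3.

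Cldn9, also picked out after its values were seen, had 424 and 3 counts in neg and 3237, 1823 and 5317 in neu, and so was split between the neg libraries as Cldn1 was. Grhl2, an activator of Cdh1 and claudin genes, had 208 counts in neg replicate 3 and at most 8 in any other library.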
